A study of Xenopus laevis with 24 samples.

Results

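The comparison concerns foregut explants of Xenopus laevis in which signalling through retinoic acid receptors was blocked with BMS493 until Nieuwkoop and Faber stage 33 (NF33). All 44478 genes listed by the authors are its members, measured in 6 of the 24 libraries of the series. The 3 BMS493 libraries came from wild-type embryos (strain NXR_0031) whose explants received 250 nM BMS493 right after dissection at NF15. The 3 control libraries came from the same strain, injected with 2.5 ng of a control oligonucleotide with 5 mismatched bases and cultured in 0.1% DMSO. Explants held foregut endoderm together with its mesoderm and were kept at 15 °C, for 16 hours to NF25, for 16 hours more to NF33 and for 12 hours more to NF38. Control explants of the same make-up at NF25 and NF38, BMS493 explants at NF25 and explants injected with 2.5 ng of an rfx6 morpholino at NF33 are also used, with 3 libraries each. Rfx6 morphants at NF25 and NF38 enter only the fit shared by all 24 libraries, with its filter and scaling. Each library pooled 8 explants, and the 3 libraries of a group are described as biological replicates. The labels do not state whether BMS493 explants carried the mismatch oligonucleotide or DMSO, so BMS493 and these components of the control cannot be told apart. The labels name no parents or clutches, so p-values measure the spread between pools of explants.

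Retinoic acid is made from vitamin A by dehydrogenases and broken down by CYP26 enzymes. It acts through retinoic acid receptors, which sit on DNA together with retinoid X receptors and recruit co-repressors when no ligand is bound. BMS493 is an inverse agonist, which strengthens the hold of these co-repressors. In vertebrate embryos retinoic acid is known for patterning the gut tube from front to back, including the domains of the pancreas and the lung.

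Genes appear in the files as numbered identifiers. Of 44478 identifiers, 1 matched a symbol in the RefSeq gene table (assembly Xenopus_laevis_v10.1), a provisional one that belongs to none of the gene lists drawn up for this tissue. Retinoic acid target genes, tissue markers and the identity of the explants were therefore not analysed here, and sequences are not given. Genes are described by level, size of change, course over the control stages and behaviour at NF25.

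The 6 NF33 libraries held between 25053076 and 26691572 counts and detected between 31570 and 32216 genes. Levels are given in CPM, counts scaled to library size with TMM factors. Correlations of log2 CPM between libraries of the same NF33 group lay between 0.989 and 0.990 across genes. Among genes at 10 CPM or more in both groups (n = 11543), the median coefficient of variation was 4.30% in BMS493 libraries and 3.88% in control libraries. Counts of every replicate pair differed by more than sampling noise, with a chi-square per gene of at least 2.13 at NF33, so no library was counted as a duplicate. BMS493 replicate 2 stood furthest from its group, with a chi-square per gene of 6.06 and 8.62 in its pairs against 2.59 for the other pair. In a principal component analysis of the 9 NF33 libraries, rfx6 morphants included, the first component carried 44.5% of the variance. On it BMS493 libraries lay between -5.10 and -2.85, rfx6 morphants between 65.1 and 69.5 and controls between -63.8 and -62.1. On the second component BMS493 libraries lay between -63.5 and -59.9 on the second component and control libraries between 32.7 and 34.4. The second component carried 30.1% of the variance, and BMS493 and control libraries did not overlap on either. At NF25, BMS493 replicate 3 stood apart, with a chi-square per gene of 28.7 and 27.3 against its fellow replicates and 31.5% of its counts in its 100 most abundant genes.

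A broad set of genes differed between BMS493 and control explants at NF33. Of 28313 genes that passed a filter on low counts, 8209 (29%) passed edgeR's quasi-likelihood test, with 0.05 as the limit for the p adjusted by Benjamini and Hochberg's method. Genes that passed are referred to as called. Most of these changes were small, and the middle of the distribution of all genes tested ran from a log2 fold change of -0.21 at the lower quartile to 0.18 at the upper quartile. The genes called and changed at least 2-fold numbered 1182 higher (4.17%) and 879 lower (3.1%) in BMS493 explants. A test that asks directly for a change beyond 2-fold (glmTreat) called 565 higher and 352 lower, and limma on log2(TPM + 1) gave 367 and 307 at least 2-fold. TPM values are corrected for the length of a transcript as well as for depth, and the added 1 shrinks the change of low genes.

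**Figure D1:**
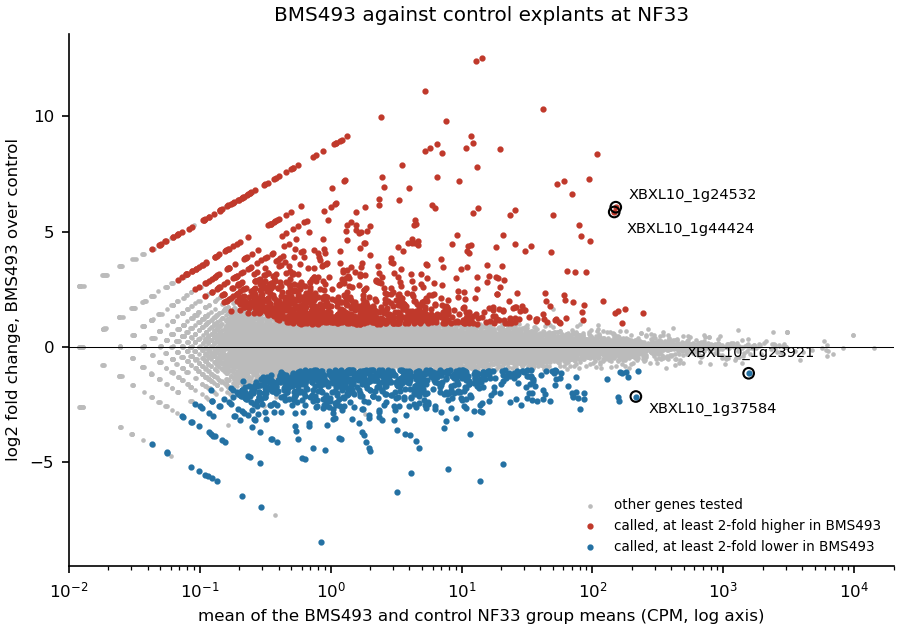
Log2 fold change of BMS493 over control explants at NF33 (vertical axis) against the mean of both group means in CPM (log axis), 1 point per gene tested; colours mark genes called by edgeR and changed at least 2-fold, 1182 higher and 879 lower, and circles mark the 4 named identifiers. The lines of red points at the upper left are genes with few or no control counts, whose fitted change depends on the small count added in the fit.

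The 1182 higher and the 879 lower genes differed in level. The median higher gene stood at 1.54 CPM in BMS493 explants and 0.363 CPM in controls. The median lower gene stood at 0.793 CPM in BMS493 explants and 2.51 CPM in controls. Of the higher genes, 843 (71.3%) were under 1 CPM in controls, and of the lower genes 480 (54.6%) were under 1 CPM in BMS493 explants. The libraries of the groups did not overlap for 1150 of the 1182 higher genes, while every BMS493 library lay above every control library for 19% of all genes tested. For 854 of the 879 lower genes every BMS493 library lay below every control library, which held for 23.3% of all genes. Both sets were chosen on these libraries, so these shares describe them and test nothing. The filter on low counts used all 8 groups of the series. On the 6 NF33 libraries alone 964 higher genes (81.6%) and 777 lower genes (88.4%) also passed it, as did 90.3% of all genes tested.

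Large changes were mostly increases. At least 8-fold changes numbered 314 higher and 76 lower, and at least 32-fold changes 124 higher and 15 lower. This tail was made of genes nearly silent in controls: 118 of the 124 were under 1 CPM there, and 54 had 0 counts, where the fitted fold depends on the small count added in the fit. Among the 21588 genes at 1 CPM or more in both groups, 339 were higher and 399 lower at 2-fold, 71 higher and 73 lower at 4-fold, and 30 higher and 5 lower at 8-fold. The change itself decides in part which genes reach this level, since 843 higher genes and 480 lower genes miss it in the group where they are low, so these counts only describe the genes present in both groups. With limma on log2(TPM + 1) the 8-fold counts were 47 higher and 5 lower, with log2(TPM + 0.1) 133 and 27, and in a fit of the 6 NF33 libraries alone 221 and 48.

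**Figure D2:**
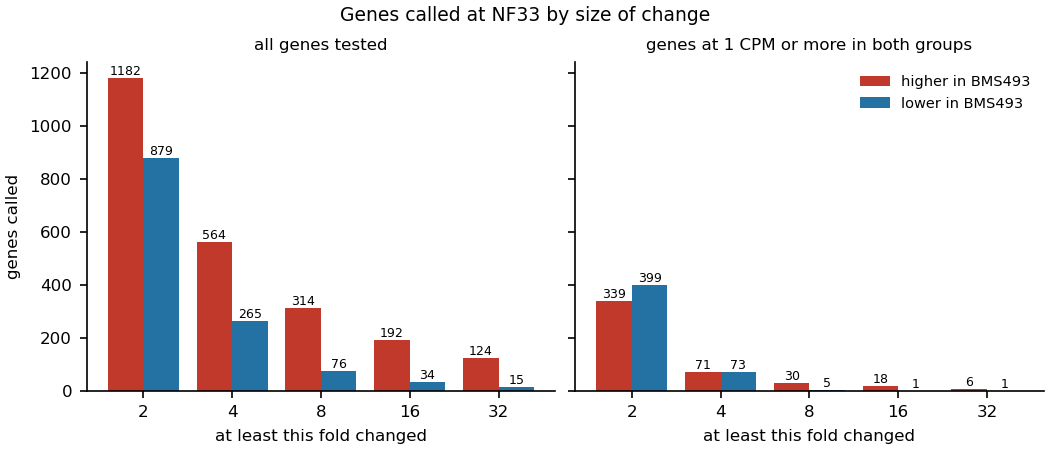
Number of genes called at NF33 (vertical axis) by the least fold change counted (horizontal axis), higher (red) and lower (blue) in BMS493 explants, for all genes tested and for genes at 1 CPM or more in both groups. Over all genes the counts are 564 higher and 265 lower at 4-fold and 314 and 76 at 8-fold, and among genes present in both groups they are 71 and 73 at 4-fold and 30 and 5 at 8-fold.

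The share of genes called was larger at higher levels. Where the higher of the 2 groups stood at 0.1 to 1 CPM, 14.1% of genes were called, against 36.8% at 10 to 100 CPM and 45.8% over 100 CPM. At least 2-fold changes were less frequent at 10 CPM and over than between 0.1 and 10 CPM, and under 0.1 CPM 3 genes were higher and 1 lower among 435. In the 0.1 to 1 CPM range 9.03% of genes were at least 2-fold higher and 4.75% lower, and over 100 CPM 1.498% were higher and 1.19% lower. Effective transcript length, taken from the ratio of counts to TPM and set to 1 for the median gene tested, had a median of 0.998 in the higher and 0.972 in the lower genes.

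Of the higher genes, 66 had 0 counts in all 3 control libraries at NF33. In BMS493 explants they ranged from 0.0869 to 28.5 CPM with a median of 0.420 CPM, and 16 reached 1 CPM. Set against a floor of 3 counts over the 3 control libraries (0.0369 CPM), the median gene was at least 11.4-fold higher. In control explants of other stages 4 of the 66 reached 1 CPM at NF25 and 3 reached it at NF38, and 59 stayed under 1 CPM at both. For 4 genes all 9 control libraries held 0 counts. The opposite pattern, 0 counts in all 3 BMS493 libraries, was seen for 12 of the lower genes, which stood between 0.0858 and 1.69 CPM in controls.

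Together the 1182 higher genes summed to 10461, 11456 and 10837 CPM in the BMS493 libraries and to 2561, 2577 and 2556 CPM in the control libraries. The 879 lower genes summed to 4267, 4381 and 4276 CPM in BMS493 libraries and to 12105, 12280 and 12068 CPM in control libraries. The 10 most abundant genes held 22.8% of the first sum in BMS493 explants and 36.8% of the second in controls. Rfx6 morphants at NF33 summed to 7162 ± 39.9 CPM on the higher and 6086 ± 96.9 CPM on the lower genes (SD, n = 3). All these sums are descriptions, because the genes were chosen on the BMS493 and control libraries at NF33. The rfx6 morphants are set against the same controls, and whether they share the changes was not tested. In tissue that mixes endoderm and mesoderm, a lower value may come from fewer cells of a type or from less RNA per cell, which cannot be told apart here.

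In absolute terms the strongest increases came from a pair of genes with different histories. XBXL10_1g24532 stood at 304, 279.9 and 306 CPM in BMS493 libraries and at 4.89, 3.60 and 4.89 CPM in control libraries. All 3 BMS493 libraries were far above the controls, and the log2 fold change was 6.06 (SE 0.07, edgeR adjusted p = 4.50e-68). SE here and below is the log2 value divided by the square root of the F statistic of edgeR's test. Such an SE can fall below counting error. The control level of XBXL10_1g24532 was lower at each later stage, with 95.1 ± 0.919 CPM at NF25, 4.46 ± 0.745 CPM at NF33 and 1.76 ± 0.290 CPM at NF38 (SD, n = 3). At NF25 it stood at 503 ± 16.9 CPM under BMS493, 2.40 above controls on the log2 scale (SE 0.05, adjusted p from edgeR 3.38e-51). Under BMS493 the gene was thus above its control at both stages, in all 3 libraries each time.

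XBXL10_1g44424 held 252, 332 and 281 CPM in BMS493 libraries and 4.62, 5.00 and 5.33 CPM in control libraries at NF33. The BMS493 libraries varied more than the controls, with replicate 2 highest, and the groups did not overlap (log2 fold change 5.85, SE 0.08, edgeR adjusted p = 3.45e-44). Its controls followed the reverse course, with 3.85 ± 0.467 CPM at NF25, 4.99 ± 0.357 CPM at NF33 and 170.0 ± 3.00 CPM at NF38 (SD, n = 3). At NF25 it was at 2.98 ± 0.131 CPM under BMS493, and the difference from controls missed the threshold (log2 fold change -0.38, edgeR adjusted p = 0.0504). The gene stood in BMS493 explants at NF33 above the level that controls reached at NF38.

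Among the decreases, XBXL10_1g23921 was one of the abundant messages of the tissue, at 849.7 ± 13.4 TPM in BMS493 explants and 1856 ± 71.1 TPM in controls at NF33 (SD, n = 3). Its CPM values were 949, 998 and 954 in BMS493 libraries and 2123, 2222 and 2104 in control libraries, without overlap. This is a log2 fold change of -1.15 with an SE of 0.05 (edgeR adjusted p = 5.14e-26). In controls it was near absent at NF25, at 1.19 ± 0.285 CPM, and reached 7614 ± 232 CPM at NF38. BMS493 explants at NF25 held 5 counts over 3 libraries, and controls held 75. The gene was thus lower at both stages, while its level under BMS493 was far higher at NF33 than at NF25.

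XBXL10_1g37584 stood at 70.3, 82.0 and 82.8 CPM in BMS493 libraries and at 357, 350.1 and 344 CPM in control libraries. BMS493 libraries lay well below all controls, with a log2 fold change of -2.16 (SE 0.07, adjusted p from edgeR 2.12e-16). It was present at all control stages, at 205 ± 14.3 CPM at NF25 and 188 ± 14.2 CPM at NF38 (SD, n = 3). At NF25 it was at 23.8 ± 1.49 CPM under BMS493, and edgeR gave a log2 fold change against controls of -3.10 (SE 0.08, adjusted p = 3.56e-18). Rfx6 morphants at NF33, which were compared with the same controls, held 8.46 ± 0.826 CPM of XBXL10_1g24532, 100.4 ± 1.39 CPM of XBXL10_1g44424, 491 ± 25.3 CPM of XBXL10_1g23921 and 259 ± 12.9 CPM of XBXL10_1g37584.

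**Figure D3:**
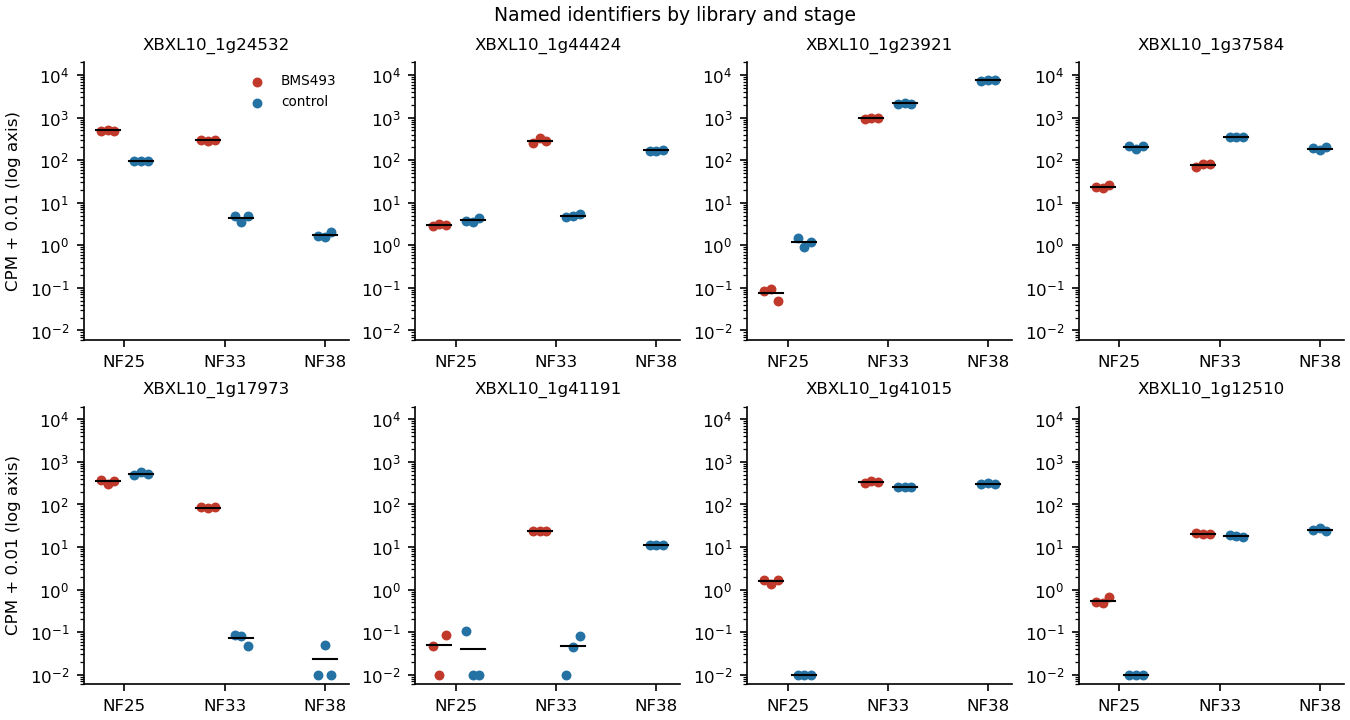
CPM + 0.01 (log axis) of the 8 named identifiers in each library at NF25, NF33 and NF38, with BMS493 in red left of control in blue, 1 point per library and a line at the group mean; NF38 has control libraries only. The upper row holds the genes named for the difference at NF33 and the lower row those named for a different effect at NF33 and NF25, among them XBXL10_1g41015 and XBXL10_1g12510 with 0 counts in all NF25 controls.

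The changed genes were sorted by the course of their controls. A control stage counted as different where its mean was at least 1 CPM and at least 2-fold above the NF33 control mean (for higher genes), or where the NF33 control mean was at least 1 CPM and at least 2-fold above that stage (for lower genes). The NF33 controls enter both the sorting and the comparison, which by itself favours some groups, so the shares are descriptions without a test. The 2-fold rule also limits the shares of control gain or loss given below, from above for lower and from below for higher genes. Libraries of a stage carry the same batch tag and those of different stages do not, so batch cannot be told apart from stage in this course. With limma on log2(TPM + 1), which calls fewer low genes at 2-fold, the groups of 385, 164 and 404 genes described next held 139, 61 and 197.

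Of the 1182 higher genes, 385 (32.6%) were genes whose controls stood higher at NF38 and not at NF25, a course found in 7.12% of all genes tested. They summed to 4998 ± 468 CPM in BMS493 explants at NF33 against 860 ± 2.06 CPM in NF33 controls, and NF38 controls held 4961 ± 34.3 CPM (SD, n = 3). On the same genes rfx6 morphants at NF33 summed to 2604 ± 29.1 CPM. In BMS493 explants the median gene had made 73.6% of the control gain between NF33 and NF38, with quartiles of 39.9% and 122%. For 127 of the 385 genes the BMS493 mean at NF33 was at or above the NF38 control mean. The BMS493 libraries parted on this group more than on any other of the 8, with sums of 4579, 5503 and 4911 CPM, and all 3 lay far above the highest control library at 861 CPM.

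A further 164 higher genes (13.9%, against 10.03% of all genes) were genes that controls held at NF25 and had lowered by NF33. BMS493 explants at NF33 summed to 1443 ± 44.0 CPM on them, against 325 ± 1.02 CPM in NF33 controls, and NF25 controls held 5123 ± 74.2 CPM (SD, n = 3). In BMS493 explants at NF33 the median gene stood above the NF33 control mean by 36.6% of what controls lost between these stages. For 25 of the 164 the BMS493 mean was at or above the NF25 control mean. BMS493 explants at NF25 summed to 6206 ± 78.3 CPM on these genes. Of the 164, 65 were called higher at NF25, where 16.1% of all genes tested were. The share therefore does not measure the fall within BMS493 explants. In 79 genes (6.68%, against 0.826% of all genes) controls were higher at both NF25 and NF38, and 554 (46.9%, against 82.0%) met neither condition.

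The main group of the 879 lower genes held 404 (46.0%; 13.2% of all genes had this course), genes that controls had raised from NF25 to NF33 and still held at NF38. They summed to 3088 ± 44.1 CPM in BMS493 explants at NF33 against 8278 ± 83.3 CPM in NF33 controls, which stood between 962 ± 19.7 CPM in NF25 controls and 18472 ± 289 CPM in NF38 controls (SD, n = 3). On the same genes rfx6 morphants at NF33 summed to 2883 ± 61.7 CPM. XBXL10_1g23921 alone held a large part of these sums. It stood at 967 CPM in BMS493 explants and 2150 CPM in controls at NF33, and at 7614 CPM in NF38 controls. Counted from the NF25 control mean, the median gene in BMS493 explants at NF33 had reached 24.3% of the control gain, with quartiles of 12.0% and 35.5%. For 50 of the 404 the BMS493 mean was at or below the NF25 control mean. BMS493 explants at NF25 summed to 506 ± 6.64 CPM on these genes. Of the 404, 107 were called lower at NF25, where 14.8% of all genes tested were. The share therefore does not measure the rise within BMS493 explants. The 2-fold decrease by which these genes were chosen caps this share in advance. In 63 lower genes (7.17%, against 3.83% of all genes) the NF38 controls alone were lower than the NF33 controls, and in 42 (4.78%, against 0.851%) both other stages were. A group of 370 lower genes (42.1%, against 82.1%) met neither condition. This group summed to 812 ± 20.7 CPM under BMS493 and 2660 ± 32.8 CPM in controls at NF33, with 3077 ± 10.3 CPM in controls at NF25 and 2377 ± 19.5 CPM at NF38. The sum in BMS493 explants at NF33 was thus below the control sum at every stage. The 238 lower genes under 1 CPM in NF33 controls fall into this group by the rule. The sum says little about the course of these low genes.

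**Figure D4:**
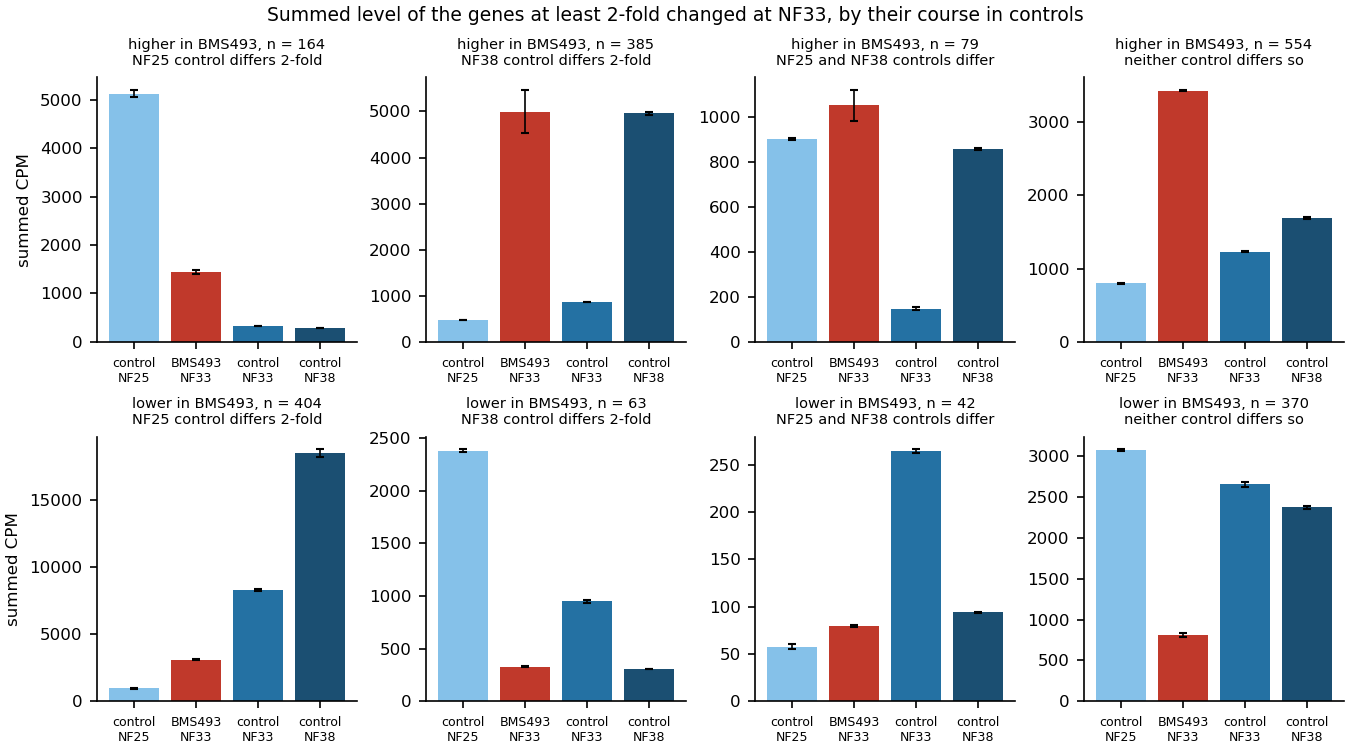
Summed CPM (mean and SD of 3 libraries, axes start at 0) of the higher genes (upper row) and lower genes (lower row) by which other control stage differed at least 2-fold from the NF33 control, shown for NF25 control, NF33 BMS493, NF33 control and NF38 control. The 385 higher genes that controls raise by NF38 stand in BMS493 explants at NF33 at 4998 CPM, beside 4961 CPM in NF38 controls.

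BMS493 explants at NF25, with controls of their own stage, share no library with the NF33 comparison. Of the 1182 genes higher at NF33, 307 (25.97%) were called higher at NF25, where 16.1% of all genes tested were, and 76 (6.43%) were called lower, against 14.8%. Of the 879 lower genes, 295 (33.6%) were called lower and 45 (5.12%) higher at NF25. At least 2-fold in the same direction at both stages were 190 higher genes, where 3.83% of all genes passed this rule at NF25, and 203 lower genes, where 2.4% did. Without BMS493 NF25 replicate 3, the changed genes called in the same direction at NF25 numbered 567 in all, against 602 with it. With limma on log2(TPM + 1), where 367 higher and 307 lower genes reached 2-fold at NF33, they numbered 267. Read the other way, 373 of the 1085 genes at least 2-fold higher at NF25 were called higher at NF33 (34.4%, against 12.8% of all genes) and 128 lower (11.8%, against 16.2%). Of the 679 at least 2-fold lower at NF25, 283 were called lower at NF33 (41.7%, against 16.2%) and 61 higher (8.98%, against 12.8%). Many genes of both sets were hardly present at NF25: 689 of the 1182 higher genes and 508 of the 879 lower genes stood under 1 CPM in both NF25 groups, as did 23.3% of all genes.

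Among the genes at 1 CPM or more in an NF25 group, the 2 directions differed with the size of the change. Of 371 lower genes, 229 (61.7%) were called lower at NF25, where 17.96% of the 21726 genes at this level were. Of those at least 4-fold lower at NF33, 63 of 75 (84.0%) were called lower at NF25 and 1 higher, with a median log2 fold change of -2.13 at NF25. Of 493 higher genes, 239 (48.5%) were called higher at NF25, where 19.1% of genes at this level were. Of those at least 4-fold higher at NF33, 77 of 162 (47.5%) were called higher at NF25 and 23 lower, with a median log2 fold change of 0.49. The higher of the NF25 BMS493 and control means decides which genes reach this level, and the NF25 calls rest on the same libraries. The shares of all genes were taken at the same level. These shares are therefore descriptions and were not tested against each other. Across the 19632 genes at 1 CPM or more in all 4 groups, the log2 fold changes at NF33 and NF25 had a Pearson r of 0.250 and a Spearman rho of 0.139, given as a description because genes are not independent replicates.

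**Figure D5:**
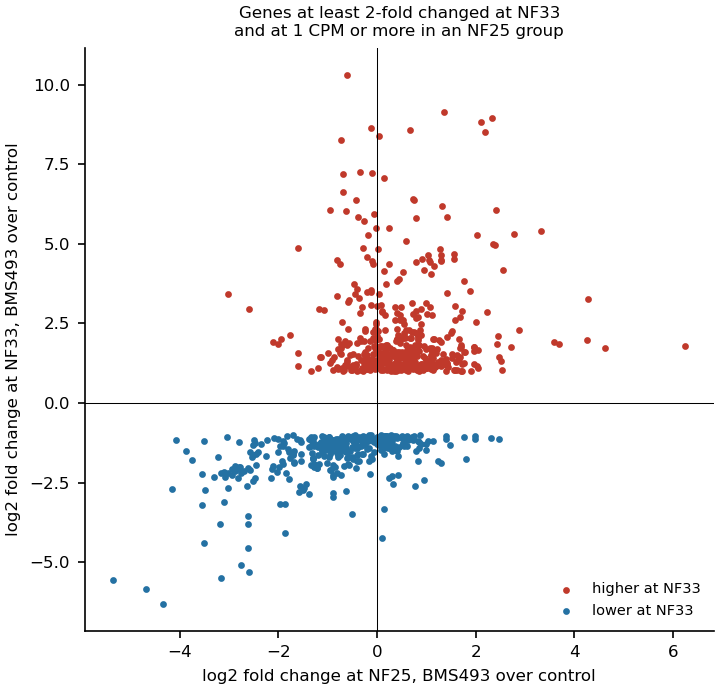
Log2 fold change of BMS493 over control at NF33 (vertical axis) against NF25 (horizontal axis), 1 point per gene at least 2-fold changed at NF33 and at 1 CPM or more in an NF25 group, 493 higher in red and 371 lower in blue. Strongly lower genes lie mostly left of 0 on the horizontal axis (median -2.13 for those at least 4-fold lower), and strongly higher genes scatter around a median of 0.49.

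The 203 genes lower at both stages summed to 2186 ± 51.0 CPM under BMS493 and 6550 ± 103 CPM in controls at NF33, and to 914 ± 10.9 CPM under BMS493 and 3497 ± 25.95 CPM in controls at NF25 (SD, n = 3). At NF33 the median of their log2 fold changes was -1.81, and at NF25 it was -2.05. The 190 genes higher at both stages summed to 2615 ± 22.7 CPM under BMS493 and 719 ± 3.73 CPM in controls at NF33, and to 2461 ± 82.6 CPM under BMS493 and 936 ± 18.8 CPM in controls at NF25. The median of theirs was 1.81 at NF33 and 1.66 at NF25. In rfx6 morphants at NF33 the 203 genes summed to 3313 ± 84.8 CPM and the 190 genes to 2305 ± 25.2 CPM. Of the NF33 sums of the 203 genes, XBXL10_1g23921 alone held 967 CPM under BMS493 and 2150 CPM in controls. A test of the difference, the BMS493 effect at NF33 less the effect at NF25, called 67 of the 203 (33.0%) and 56 of the 190 (29.5%), near its share over all genes of 26.4%.

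Over all genes that test called 7475. For 975 (3.44%) the ratio of BMS493 to control was at least 2-fold larger at NF33 than at NF25, and for 1200 (4.24%) at least 2-fold smaller. The sign of the difference does not say whether a gene was higher or lower in BMS493 explants at NF33. The test runs across the batch tags of the 2 stages. It called 602 (50.9%) of the 1182 genes higher at NF33 and 390 (44.4%) of the 879 lower genes. Its share over all genes was 26.4%. The difference was positive for 586 of the 602, which is 49.6% of the higher genes, while 11.6% of all genes were called with a positive difference. For 352 of the 390 it was negative, 40.0% of the lower genes, while 14.8% of all genes were called so. These counts include any genes that were unchanged or changed the opposite way at NF25. Choosing genes by their NF33 value favours a stronger effect at that stage.

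XBXL10_1g17973 had the highest log2 difference among genes reaching 10 CPM, 10.92 (edgeR adjusted p = 2.69e-23). At NF25 it stood at 348 ± 40.6 CPM under BMS493 and 529 ± 43.3 CPM in controls (SD, n = 3). At NF33 it was at 86.1, 81.5 and 85.3 CPM in BMS493 libraries, while the control libraries held 2, 2 and 1 counts. BMS493 over control at NF33 came to a ratio of 1372 (588 to 4228, 95% counting interval). NF38 controls held 1 count. With limma the log2 difference was 3.40 on log2(TPM + 1) and 6.49 on log2(TPM + 0.1). The message was near absent from controls by NF33, and BMS493 explants held it at a lower level than at NF25.

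XBXL10_1g41191 stood at 24.3, 23.5 and 23.2 CPM in BMS493 libraries at NF33 and at 0, 1 and 2 counts in control libraries. The ratio of BMS493 to control was 641 (219 to 3113, 95% counting interval). At NF25 BMS493 and control explants held 3 and 2 counts in all, and NF38 controls held 11.1 ± 0.279 CPM. Its log2 difference of 8.87 (SE 2.05, edgeR adjusted p = 0.000474) rests on counts near 0 at NF25, and without control NF25 replicate 1 the adjusted p was 0.986. Xenopus laevis is allotetraploid, and near-identical copies may share reads, so values of single identifiers carry that uncertainty.

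The lowest differences belonged to genes with 0 counts in controls at NF25 and clear levels in controls at NF33. XBXL10_1g41015 stood at 340.1 ± 20.3 CPM under BMS493 and 258 ± 5.79 CPM in controls at NF33, and edgeR gave a log2 fold change there of 0.40 (SE 0.04, adjusted p = 4.26e-12). At NF25 BMS493 libraries held 43, 31 and 44 counts of it and controls held 0, at least 32.5-fold higher against 3 counts over the group. XBXL10_1g12510 stood at 20.4 ± 0.515 CPM under BMS493 and 18.1 ± 0.927 CPM in controls at NF33, a difference that missed the threshold (log2 fold change 0.17, edgeR adjusted p = 0.0881). At NF25 it held 13, 11 and 17 counts in BMS493 libraries and 0 in controls, at least 11.3-fold higher. Their log2 differences of -7.95 and -6.66 depend on the small count added in the fit. For XBXL10_1g41015 limma on log2(TPM + 1) gave -2.03. For XBXL10_1g12510 limma on log2(TPM + 1) gave -0.11 with an adjusted p of 0.546.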

How the data were processed

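Per the labels' protocols, libraries of pooled explants were made with a kit that keeps the strand of mRNA. The authors deposited estimated counts per gene, stored as whole numbers, and TPM per gene. RSEM 1.3.0 and Bowtie2 are named in the submitters' processing notes without roles. Genome build, annotation and strand setting: not given in the sources used here. Counts in an entry without a gene identifier made up 0% and were left out.

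Counts of all 24 libraries were fitted in edgeR 4.0.16 (R 4.3.3): filterByExpr over 8 groups (minimum count 10, minimum total 15), TMM scaling, glmQLFit with robust estimates, glmQLFTest and Benjamini-Hochberg adjustment over 28313 genes. Alternatives used DESeq2 1.42.0 and limma 3.58.1. On simulated counts the NF33 fit called 96% of genes changed 2-fold and 100% changed 4-fold, with 3.45% of calls on unchanged genes. The test of the difference of effects called 86% and 100%, with 4.62% of calls on unchanged genes. These counts were drawn from edgeR's own model and fitted spread, with as many rises as falls, so they do not check that model. The simulation changed 200 genes, far fewer than were called here, all at 1 CPM or more in NF33 and NF25 controls. Its rates therefore do not cover genes under 1 CPM in controls, which include 843 of the 1182 higher genes. Counting intervals and floors cover counting error only.

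Members and gene lists were chosen with earlier results of these data known. Without symbols, the lists were not run. The rule for names took, at NF33, the 2 higher and 2 lower identifiers with the largest difference in mean CPM among those called, at least 2-fold changed and without overlap. For the difference of effects it took the 2 highest and 2 lowest among called genes reaching 10 CPM in a group. The sorting by control course was chosen after the data had been seen.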

Additional observations from a re-analysis of the deposited data

Results flagged for a closer look

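The effect of BMS493 differed between NF33 and NF25, by edgeR's test of the difference, for 7475 genes, and all 8 named identifiers were among them. The log2 difference was 3.65 for XBXL10_1g24532, which was higher at both stages and more so at NF33. It was 6.23 for XBXL10_1g44424, which was called higher at NF33 and was not called at NF25. It was 2.93 for XBXL10_1g23921 and 0.94 for XBXL10_1g37584, which were lower at both stages and less so at NF33. It was 10.92 for XBXL10_1g17973, 8.87 for XBXL10_1g41191, -7.95 for XBXL10_1g41015 and -6.66 for XBXL10_1g12510, the last 4 having been chosen for this difference.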

How the results depend on the processing

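Of 149 recomputed main counts, 143 stayed within 1.5 times the reported value. The 6 others were the at least 2-fold counts with glmTreat (565 higher, 352 lower) and with limma on log2(TPM + 1) (367 higher, 307 lower), the genes called lower with limma on log2(TPM + 0.1) (3018), and, with limma on log2(TPM + 1), the genes 2-fold changed at NF33 and called in the same direction at NF25 (267, against 602 as reported). No direction reversed among the named identifiers under the alternatives run, but the difference of effects of XBXL10_1g41191 was no longer called without NF25 control replicate 1 (5.93, edgeR adjusted p = 0.986), nor that of XBXL10_1g12510 with limma on log2(TPM + 1) (-0.11, adjusted p = 0.546). The majority among all calls did turn: of 8209 genes 3610 were higher and 4599 lower, and TMM with BMS493 NF33 replicate 1 as reference gave 4090 higher and 4082 lower. It also turned without the filter on low counts (4109 and 4067) and with limma on log2(TPM + 0.1) (3024 and 3018). The same held without NF25 control replicate 2 (4113 and 4080) and without NF25 BMS493 replicate 1 (4156 and 4124). In the other settings run lower genes stayed the majority. Among genes at least 2-fold changed higher genes stayed the majority in every setting run. Leaving out each of the 12 libraries at NF33 and NF25 in turn gave 7000 to 8553 calls, 1128 to 1258 higher and 818 to 890 lower genes at least 2-fold changed, 6699 to 7239 calls for the difference of effects, and 549 to 588 genes shared with NF25. Replicate numbers are shared between groups, but the deviations of same-numbered BMS493 and control libraries at NF33 correlated at -0.00417, 0.0195 and -0.00296. No pairing by number was seen in these values, which cannot decide whether same-numbered pools shared parents. With a replicate block the fit called 3545 higher and 4542 lower genes. Low counts limit the changes of genes under 1 CPM.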
